A study of Mus musculus with 5 samples.

Results

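The interferon-stimulated genes (ISGs) described here are a list of 51 genes, of which 49 were matched by symbol and are measured among the 32285 genes of the single-nuclei RNA-sequencing (snRNAseq) data from mouse interscapular brown adipose tissue (iBAT). Mx1 and Mx2 were not analysed here. The members were taken as listed, whatever their level. They were described in nuclei gated into cell types by marker genes, in each library, and in adipocyte-gate nuclei with and without UMIs of Cyp2e1 or Aldh1a1, which encode a cytochrome P450 and a retinaldehyde dehydrogenase. One matrix, called the genotype matrix below, holds 2 libraries of 3-month-old mice. They are WT littermate controls, which carry either Ucp1-Cre+/– alone or STX4 fl/fl alone, and Ucp1-STX4KO mice (Ucp1-Cre+/– with STX4 fl/fl), in which a Cre driven by the promoter of Ucp1, the thermogenic uncoupling protein, removes the membrane fusion protein syntaxin 4 from brown adipocytes. The aging matrix holds 3 libraries of C57BL/6J mice aged 2, 12 and 24 months. Nuclei came from male mice and were sorted before loading. Each condition has a single library, without replicates, and how the 4 mice named in the methods were divided is not stated. A suffix on each barcode parts the libraries of a matrix, and no label ties a suffix to a genotype or age. Libraries are therefore named by matrix and suffix, and no comparison between genotypes or between ages was made.

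Interferons are cytokines that cells release when they sense foreign or misplaced nucleic acid. Type I and type III interferons signal through Janus kinases to a complex with STAT2 and IRF9 that binds the interferon-stimulated response element (ISRE), while type II interferon (interferon γ) acts through a different, palindromic element (GAS). The genes switched on encode antiviral effectors, GTPases that attack the vacuoles of intracellular microbes, nucleic acid sensors and the transcription regulators of the pathway itself. The members fall into 9 groups by role, which order the results. They are 9 immunity-related GTPases (IRGs), 9 guanylate-binding proteins (GBPs), 2 very large inducible GTPases, 4 IFIT proteins, which bind foreign RNA ends, 5 OAS proteins, which sense double-stranded RNA, 3 RNA sensors of the RIG-I and DDX60 kind, 3 genes of the ISG15 ubiquitin-like system, 4 transcription regulators and 10 other effectors.

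The ISRE was looked for in the promoters, since it is the element through which many members are known to respond. Promoters of 250 bases before to 50 after the start were found in RefSeq (GRCm38.p6) for 33 of the 49 members. The motif, GAAA followed by any 2 bases and GAAA again, was on either strand in 21 of the 33 (63.6%), against 3.99% of the promoters of 27025 genes. The GAS motif TTCNNNGAA, which reads the same on both strands, was in 9 of 33 (27.3%), against 9.55% of all genes. It stood beside an ISRE in 8 of those 9 promoters, and the matches overlapped in 0. By role, the ISRE was in 5 of 6 IRG promoters, 4 of 4 GBP, 3 of 4 IFIT, 2 of 4 OAS and 1 of 3 transcription regulator promoters. A match is a description of letters, not a binding site. The 7 stretches below are examples, taken from several role groups, of promoters with a match upstream of the start. Each is 60 bases upstream of a RefSeq start, read 5′ to 3′ on the strand of the gene, with every ISRE and every reverse complement of it in capitals. The Isg15 stretch holds 3 overlapping matches in 1 run of capitals, and the Ifit1 stretch 2 separate ones.
Igtp (IRG, chr11:58199496-58199555, + strand): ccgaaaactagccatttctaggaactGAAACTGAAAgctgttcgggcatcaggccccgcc
Gbp7 (GBP, chr3:142530258-142530317, + strand): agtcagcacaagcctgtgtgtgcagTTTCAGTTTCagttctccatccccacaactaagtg
Ifit1 (IFIT, chr19:34640779-34640838, + strand): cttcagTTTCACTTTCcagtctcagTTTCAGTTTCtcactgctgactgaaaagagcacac
Ifit3 (IFIT, chr19:34583382-34583441, + strand): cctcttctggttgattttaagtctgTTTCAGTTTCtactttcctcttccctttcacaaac
Isg15 (ubiquitin-like modifier, chr4:156200850-156200909, - strand): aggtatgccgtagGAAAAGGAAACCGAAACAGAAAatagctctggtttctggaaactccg
Rsad2 (viperin, an antiviral enzyme, chr12:26456538-26456597, - strand): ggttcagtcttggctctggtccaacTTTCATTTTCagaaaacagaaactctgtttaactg
Stat2 (transcription factor, chr10:128270251-128270310, + strand): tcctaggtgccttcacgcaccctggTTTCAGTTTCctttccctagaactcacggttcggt

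Many members are neighbours and near copies, which limits what single counts can say. In the GRCm38 annotation Gbp2, Gbp3, Gbp5 and Gbp7 lie within 144 kb of chromosome 3, Gbp4, Gbp6, Gbp8, Gbp9 and Gbp10 within 280 kb of chromosome 5, the 4 Ifit genes within 99.3 kb of chromosome 19, and Rsad2 and Cmpk2, an induced nucleotide kinase, within 37.1 kb of chromosome 12. Over the last 1000 bases of their transcripts, which a 3′ assay reads, 30 members share no 50-base word with another gene. Tgtp1 and Tgtp2 share 100% of these words with each other and so do Gvin1 and Gm4070. Gbp10 shares 100% and Gbp6 73.7% of them with Gm43302, Oas1a shares 58.3% with Oas1g and Ifit3 47.2% with Ifit3b. How the counting split or dropped reads between these copies is not known, so values of these genes are uncertain one by one.

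The genotype matrix holds 11201 and 9106 nuclei (suffixes 1 and 2) and the aging matrix 10000 barcodes per suffix, of which 7842, 10000 and 10000 passed the lower limits of 200 UMIs and 100 genes. A UMI (unique molecular identifier) stands for 1 captured RNA molecule. Libraries held 14486189 to 76195924 UMIs, and median UMIs per barcode ran from 891 to 5998. Pairs of libraries shared 23 to 45 barcode sequences, at most 0.45% of the smaller library. A nucleus was gated to a cell type other than adipocyte when at least 2 different markers of the type had UMIs and made up at least 10 of 10000 UMIs, to adipocyte when it passed only that list, and was called mixed when it passed more than 1 of the other lists. The label calls the samples brown adipocytes, and the genotype matrix was mostly adipocyte-gate nuclei (10355 and 6014), while in the aging matrix 17217 of 27842 nuclei passed the endothelial gate, 5444 were mixed and only 1208 passed as adipocyte. Adipocyte markers were counted in nuclei of other gates too. In suffix 2 of the genotype matrix the 8 adipocyte markers made up a median of 137 of 10000 UMIs in adipocyte-gate nuclei, with a 5th percentile of 27.3, and of 30.9 in macrophage-gate nuclei. In the aging matrix the median was 0 in stromal-gate and Schwann-gate nuclei of suffix 1. The adipocyte gate of suffix 2 of the genotype matrix thus holds nuclei with no more adipocyte-marker RNA than macrophage-gate nuclei. Results on adipocytes are given also for marker-rich adipocyte nuclei, with at least 100 adipocyte-marker UMIs per 10000 (8996 and 4088 nuclei), a limit chosen after the data were seen. The self-made gates are names for marker content, and no doublets were called.

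The 49 members together were lowest in adipocyte-gate, mural-gate and skeletal muscle-gate nuclei and several-fold higher in immune, endothelial and stromal gates. In the genotype matrix their summed level was 392.5 CPM (UMIs per 1000000 UMIs of the same nuclei; 40575 member UMIs, 95% exact Poisson interval 388.7 to 396.4) in adipocyte-gate nuclei. It was 316 CPM (292 to 341) in the skeletal muscle gate and 533 CPM (497 to 572) in the mural gate of pericytes and smooth muscle. These 3 gates made up the lower end of the order, and their intervals do not overlap. The stromal gate held 1287 CPM (1253 to 1321), the endothelial gate 1918 (1846 to 1992), the macrophage gate 2095 (2029 to 2162) and the T lymphocyte gate 2147 (2011 to 2291). The endothelial, macrophage and T lymphocyte gates lie close together, and the intervals of the last 2 overlap. Intervals cover counting error only, since nuclei of 1 library are not replicates. In the aging matrix the order was similar, with 2609 CPM (2591 to 2627) in endothelial-gate, 1285 in Schwann-gate, 1180 in stromal-gate, 555 (528 to 583) in adipocyte-gate and 507 (489 to 527) in mural-gate nuclei. The endothelial level was 4.89 times the adipocyte level in the first matrix and 4.70 times in the second. Restricting nuclei to the 200 to 2000 UMIs of the study's own filter, which leaves no nucleus of suffix 1, took the first ratio to 1.64 and the second to 3.66.

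**Figure D1:**
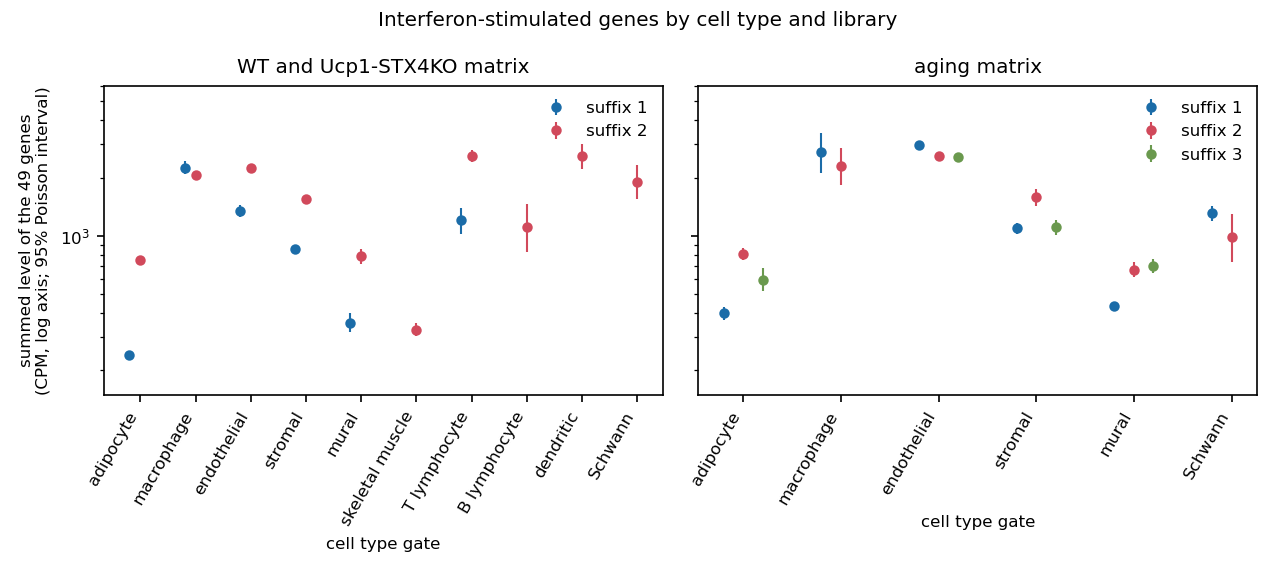
Summed level of the 49 ISGs in CPM (log axis) in each cell type gate of the genotype matrix and of the aging matrix, with 1 point per library and exact 95% Poisson intervals. Adipocyte, mural and skeletal muscle gates sit at the bottom, and within the adipocyte gate the 2 libraries of the genotype matrix stand apart at 239 and 750 CPM, while the macrophage points of that matrix are 2262 and 2064 CPM.

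Since 10355 of 16369 adipocyte-gate nuclei but only 76 of 602 macrophage-gate nuclei were in suffix 1, ratios between gates were taken within a library. In suffix 2 the summed level relative to the adipocyte gate was 3.02 in the endothelial, 2.75 in the macrophage, 2.07 in the stromal and 1.05 in the mural gate, and in suffix 1 it was 5.64, 9.45, 3.55 and 1.48. The order of the macrophage and endothelial gates thus changed with the library. A ratio of at least 2 was found in suffix 2 for 34 of 46 members in the endothelial gate (18.5% of all genes), 30 of 47 in the macrophage gate (23.3%), 31 of 47 in the stromal gate (21.2%), 26 of 46 in the T lymphocyte gate (23.4%) and 9 of 46 in the mural gate (20.7%). A ratio of at most 0.5 was found for 0, 3, 1, 7 and 13 of them (14.2%, 20.8%, 16.2%, 28% and 20.1% of all genes). In suffix 1, 32 of 40 endothelial (16.2%), 35 of 40 macrophage (18.8%) and 26 of 40 stromal ratios (19.5%) were at least 2, and 4, 2 and 3 at most 0.5 (22.4%, 34.3% and 19.4%). Counts for the mural gate lay near those of all genes.

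The cell types differed in which roles they carried. OAS genes led in the macrophage gate, where Oas2 was 13.6 times (10.8 to 16.9) and Oas1a 7.55 times (4.202 to 13.03) the adipocyte level within suffix 2. Pooled over both libraries these ratios were 46.9 and 25.9. The OAS group as a whole was 9.28 times higher in macrophage-gate nuclei but 3.16 times in endothelial-gate nuclei of suffix 2, whereas the IRGs were 1.25 and 3.22 times higher. The endothelial IRG level rests in part on few nuclei, since 22 of 468 held 362 IRG UMIs and 1 of them 131 UMIs of Iigp1. In the endothelial gate the highest ratios were those of Gbp4, at 23.1 times (17.1 to 31.1), and Gbp9, at 13.2 times (7.60 to 22.1) within suffix 2, and 52.9 and 30.2 times pooled. In the T lymphocyte gate Gbp4 was at 27.2 and Gbp8 at 25.6 times the adipocyte level within suffix 2 (66.2 and 59.8 pooled), and the very large inducible GTPases were 11.5 times higher. Their chromosome 5 neighbour Gbp9 was at 18.8 times (8.55 to 37.1) in the T lymphocyte gate within suffix 2. The neighbours Gbp6 and Gbp10, whose transcript ends share words with Gm43302, did not share these ratios. Gbp6 was at 1.40 times (1.03 to 1.86) in the endothelial and 1.002 times (0.517 to 1.76) in the T lymphocyte gate. Gbp10, with 5 and 1 UMIs, was at 0.826 and 0.493 times. In the stromal gate Ifit2 was at 7.62 and Oasl2 at 7.15 times (19.6 and 17.0 pooled). Mural-gate nuclei had their highest ratios for Gbp7, at 3.59, and Parp14, an ADP-ribosyltransferase, at 2.53 (5.57 and 4.10 pooled).

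Skeletal muscle-gate nuclei, 460 of 470 of which were in suffix 2, were set beside the adipocyte gate of that library because their member level was the lowest. Of 46 members, 0 were at least 2-fold higher in the muscle gate and 27 at most 0.5-fold, against 12.1% and 25.8% of all genes. Iigp1, an IRG of the kind that coats parasite vacuoles, was at 17.6 CPM in muscle-gate, 104 CPM in adipocyte-gate, 70.5 CPM in macrophage-gate and 387 CPM in endothelial-gate nuclei. Oas2 was at 4.53, 6.51, 88.4 and 33.5 CPM in the same 4 gates. Of these 4 gates, the macrophage gate had the most Oas2 and the endothelial gate the most Iigp1. The endothelial Iigp1 level rests on few nuclei, since 11 nuclei held 265 of its UMIs and 1 of them held 131. The OAS group was at 16.8 CPM in adipocyte-gate and 8.05 CPM in muscle-gate nuclei, and the IRGs at 176 and 44.8 CPM.

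In adipocyte-gate nuclei of suffix 1 the regulators gave 6013 and the other effectors 6634 of 17310 member UMIs, and in suffix 2 they gave 6273 and 4930 of 23265, beside 5472 from the IRGs. Pooled over both libraries the order of single genes was as follows. The 15 members with the most UMIs were led by Nlrc5 (6782), the activator of MHC class I genes, Rnf213 (5038), a giant ubiquitin ligase, and Stat2 (3547). Iigp1 (3537), the kinase Eif2ak2 (3230), which halts translation on double-stranded RNA, Gbp6 (2474) and Irf9 (1796) followed, then Gm4951 (1217), Parp14 (1080), Ifih1 (1039), Irgm2 (1001), Herc6 (985), Ddx60 (807), Trim30a (784) and Samd9l (618). These are UMIs of a 3′ assay, so they count captured molecules and were not divided by gene length. The 4 Ifit genes had 243 UMIs over both libraries and were found in 0.328% and 1.30% of adipocyte-gate nuclei. The 5 OAS genes were found in 0.493% and 5.55%. At least 1 UMI of any member was found in 68.5% (67.6 to 69.4, exact Clopper-Pearson interval) and 78.8% (77.7 to 79.8) of adipocyte-gate nuclei, at median depths of 6201 and 4193 UMIs.

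Adipocyte-gate nuclei of the 2 libraries of the genotype matrix differed in members of every group. Their summed level was 239 CPM (interval 236 to 243) for suffix 1, while suffix 2 had 750 CPM (741 to 760), a ratio of 3.14 (exact conditional binomial 95% interval 3.07 to 3.20). In marker-rich nuclei it was 226 and 681 CPM, a ratio of 3.01. After thinning every nucleus to 500 UMIs the ratio was 3.68, although the level itself fell with depth in suffix 2, from 1273 CPM in nuclei under 2000 UMIs to 582 CPM in those of 10000 or more. Of 46 members with at least 20 UMIs, 40 were at least 2-fold higher with suffix 2 and 0 at most 0.5-fold, against 17.8% and 22.1% of all genes. The limit was on the sum of both libraries, for members and all genes alike. Only 38 members had at least 20 UMIs in both libraries. The others, Gm4070 and Ifi47 among them, passed only through suffix 2, where they are higher. Other gates differed less between the same libraries, with ratios of 2.21 in the mural, 1.83 in the stromal, 1.68 in the endothelial and 0.912 (0.838 to 0.994) in the macrophage gate. In these 4 gates 5 of 13, 16 of 35, 11 of 31 and 3 of 29 members were at least 2-fold higher (7.02%, 7.72%, 9.29% and 11.4% of all genes) and 0, 0, 2 and 2 at most 0.5-fold (10.1%, 13.7%, 11.7% and 12.1%). Markers of other cell types moved with the suffix. In marker-rich nuclei outside the high class defined below, all 7 macrophage markers together were at 7.38 CPM with suffix 1 and 28.9 CPM with suffix 2, and the 8 endothelial markers at 10.9 and 24.0 CPM. The skeletal muscle list went further, from 4.82 to 93.0 CPM, as did the B lymphocyte list, from 3.82 to 33.0 CPM, and the adipocyte list was at 13927 and 19477 CPM. Leaving out adipocyte nuclei with any immune marker UMI gave a ratio of 2.85. The part of these cells in the result was not tested, and the suffix cannot be told apart from genotype, library or mouse.

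**Figure D2:**
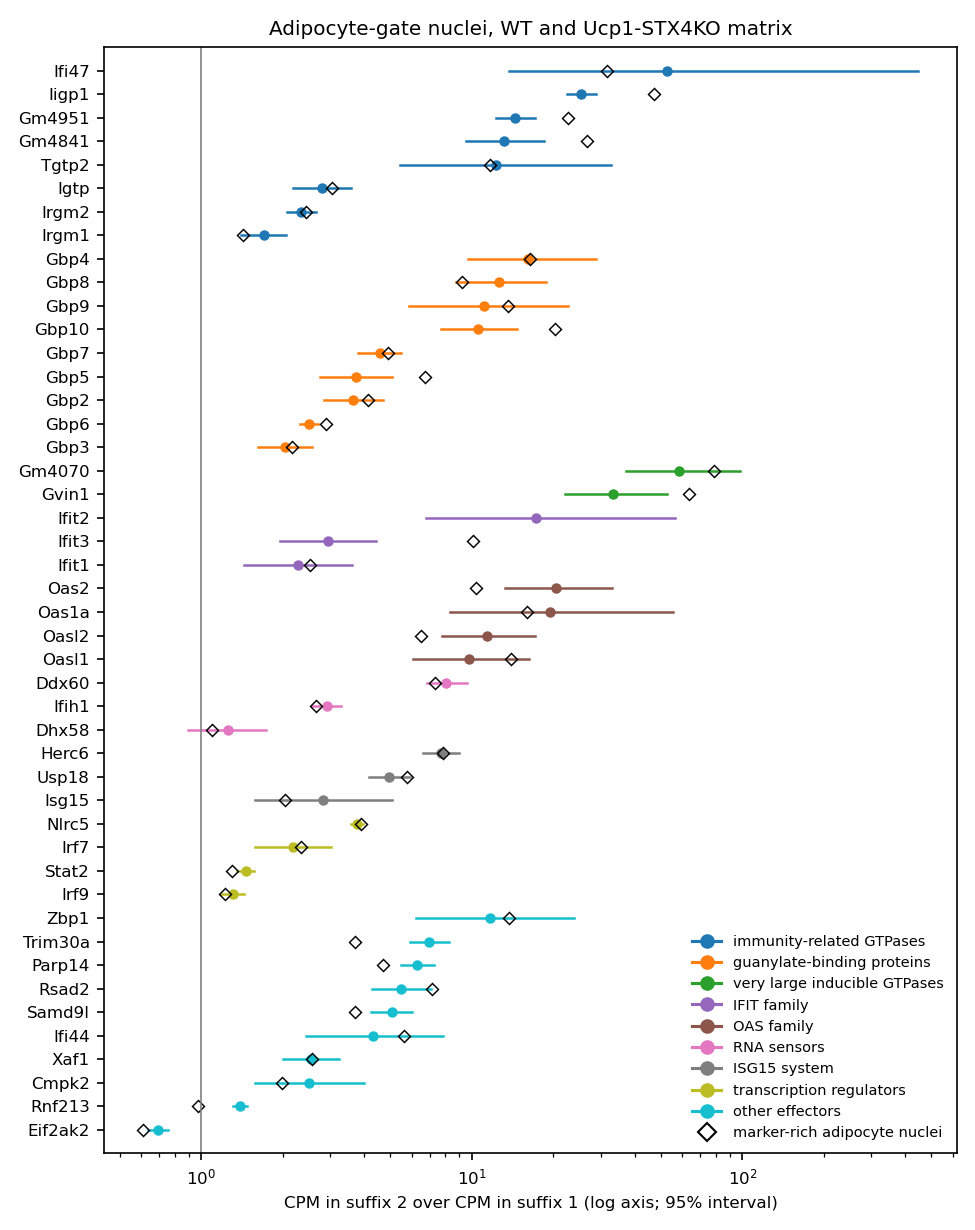
CPM ratio of suffix 2 to suffix 1 in adipocyte-gate nuclei of the genotype matrix for each member (log axis), ordered within its role group, with exact conditional binomial 95% intervals and the marker-rich value beside the gate value. Most members lie to the right of 1, Gm4070 (58.6) and Ifi47 (52.5) farthest, and Eif2ak2 lies left of it at 0.695.

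By group the ratio between the libraries was highest for the very large inducible GTPases, the OAS genes (14.5) and the IRGs (9.12), and lowest for the regulators (2.43) and other effectors (1.73). The group of very large inducible GTPases was at 0.594 CPM with suffix 1 and 26.4 CPM with suffix 2, a ratio of 44.5. Within it Gm4070 went from 19 to 477 UMIs (ratio 58.6, interval 37.1 to 98.2) and Gvin1 from 24 to 343 (33.3, with an interval up to 52.8). In the IRGs the level was 19.3 CPM with suffix 1 and 176 CPM with suffix 2. Iigp1 was at 4.10 and 104 CPM and Gm4951 at 2.34 and 33.8 CPM, but Irgm1, a regulatory IRG that guards host membranes, was at 3.55 and 6.06 CPM, a ratio of 1.71. The 3 IRGs Iigp1, Gm4841 and Gm4951 all had ratios above 13, and the rarely counted Ifi47 (2 and 45 UMIs) had 52.5 with a wide interval (13.7 to 447). The OAS group was at 1.16 and 16.8 CPM, with Oas2 at 0.318 and 6.51 CPM. In marker-rich nuclei the OAS ratio was 9.64 and in the whole gate 14.5, and that of Ifit2, an IFIT gene, was 1.90 (0.278 to 11.2; 7 UMIs) and 17.3. GBPs were at 25.4 and 85.4 CPM, the IFIT group at 1.40 and 4.58 CPM, the RNA sensors at 10.4 and 40.7 CPM and the ISG15 system at 6.18 and 38.6 CPM. The regulators were at 83.1 and 202 CPM. Among them Nlrc5 was 3.76 times higher (35.9 and 135 CPM), while Stat2 (30.2 and 44.0 CPM, ratio 1.46) and Irf9 (15.9 and 20.8 CPM, ratio 1.31), the partners in the ISRE-binding complex, differed little. Eif2ak2 alone among members with at least 20 UMIs was lower with suffix 2, at 34.4 and 23.9 CPM (0.695, 0.639 to 0.754). Rnf213 was at 43.6 and 60.7 CPM in the gate (1.39), and its ratio was 0.978 (0.910 to 1.05) in marker-rich nuclei.

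Cyp2e1 or Aldh1a1 UMIs were found in 3.45% of adipocyte-gate nuclei with suffix 1 (357 of 10355) and in 33.95% with suffix 2 (2042 of 6014), at median depths of 6201 and 4193 UMIs. Cyp2e1 was at 6.90 and 227 CPM. Nuclei of other types had such UMIs too. In suffix 2, 13.3% of macrophage-gate (median 2481 UMIs), 16.9% of endothelial-gate (1305 UMIs) and 20.4% of T lymphocyte-gate nuclei (1496 UMIs) had a UMI of either gene, below the adipocyte share. Stromal-gate and muscle-gate nuclei carry Aldh1a1 themselves (103 and 358 CPM in suffix 2). Of the 2399 nuclei of the class 2042 were in suffix 2, so the pooled ratio of nuclei with to without such UMIs mixes class and library. Pooled, members were at 710 and 333 CPM, a ratio of 2.13, and 20 of 46 were at least 2-fold higher and 1 at most 0.5-fold, against 8.29% and 12.4% of all genes. The values within a library were smaller.

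Within suffix 1 members were at 342 CPM in nuclei with and 235 CPM in nuclei without such UMIs, a ratio of 1.46 (1.37 to 1.55), and 13 of 38 members were at least 2-fold higher and 5 at most 0.5-fold, against 7.14% and 5.93% of all genes. Thinned to 500 UMIs the ratio was 2.55, and in marker-rich nuclei 1.53. Within suffix 2 they were at 796 and 716 CPM, a ratio of 1.11 (1.08 to 1.14), with 3 of 46 at least 2-fold higher and 10 at most 0.5-fold, against 3.99% and 7.92% of all genes. Here the direction depended on the nuclei taken, and nuclei with such UMIs were deeper (median 5545 against 3473 UMIs). It was 1.32 (1.28 to 1.36) in marker-rich nuclei but 0.929 after thinning to 500 UMIs and 0.921 in nuclei of 200 to 2000 UMIs. In marker-rich nuclei of suffix 2, 3 of 43 members were at least 2-fold higher and 6 at most 0.5-fold, against 5.3% and 3.27% of all genes.

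The roles parted within suffix 2, with GTPases and regulators higher and antiviral effectors lower in nuclei with Cyp2e1 or Aldh1a1 UMIs. Very large inducible GTPases were at 36.9 and 18.6 CPM with and without such UMIs (1.98; marker-rich 2.16), IRGs at 211 and 151 CPM (1.40; 1.35), regulators at 237 and 176 CPM (1.35; 1.48) and GBPs at 91.3 and 81.0 CPM (1.13; 1.17). The OAS group was at 9.40 and 22.4 CPM (0.420; marker-rich 0.575), the ISG15 system at 30.1 and 44.9 CPM (0.670; 0.809) and the IFIT group at 3.39 and 5.48 CPM (0.618; 0.784, whose interval of 0.487 to 1.25 includes 1). Levels also differed with depth. From adipocyte-gate nuclei under 2000 UMIs to those of 10000 or more, the OAS group went from 66.4 to 10.6 CPM. The IFIT group went from 8.81 to 3.56 CPM and the GBPs from 167 to 61.3 CPM. Nuclei with Cyp2e1 or Aldh1a1 UMIs were deeper, and the part of depth in these ratios was not tested. For other effectors the direction turned, from 0.762 in the gate to 1.21 in marker-rich nuclei, and for RNA sensors the ratio went from 1.07 to 1.60. Within suffix 1 every group had a ratio above 1, from 1.30 for other effectors to 6.70 for the very large GTPases, though the intervals of the IFIT and OAS groups, which rest on 6 and 5 UMIs in nuclei of the class, include 1.

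Single members varied within their groups. Irf7, the regulator that amplifies type I interferon, had 3.38 (1.62 to 6.41) in suffix 1, 2.52 (1.55 to 4.17) in suffix 2 and 4.24 in marker-rich nuclei of suffix 2. Nlrc5 had 1.72 and 1.60, Gvin1 5.82 and 1.76 and Gm4070 7.90 and 2.16 in the 2 libraries. Gm4951 had 4.77 and 1.30, and Gbp10 2.01 (0.525 to 5.52) and 1.71. Iigp1 had 4.85 pooled but 0.771 (0.366 to 1.44) in suffix 1, where the class held 10 of its 297 UMIs, and 1.44 in suffix 2. Gm4841 had 3.28 pooled and 0.503 (0.0124 to 2.95) and 1.08 within the libraries. At the low end, Rsad2 had 0 of 93 UMIs in the class in suffix 1 and a ratio of 0.246 (0.166 to 0.357) in suffix 2, Isg15 had 0.962 (1 UMI in the class) and 0.0987 (0.0114 to 0.393), Oasl1 had 0 of 22 UMIs and 0.181, and Cmpk2 0 of 39 UMIs and 0.473. In marker-rich nuclei of suffix 2 these 4 had ratios of 0.328, 0.138, 0.104 and 0.484, of which the last has an interval that includes 1 (0.167 to 1.26). Of 38 members with at least 20 UMIs in both libraries, 5 had intervals above 1 in both, 1 below 1 in both and 5 opposite directions (Usp18, Herc6, Rnf213, Parp14 and Trim30a). Of 33 in marker-rich nuclei, 8 were above 1 in both, 0 below in both and 1 opposite, Usp18, the protease that strips ISG15, with 2.62 and 0.524. No such counts over all genes are given here, so these have no background beside them. In the aging matrix 60 of 1208 adipocyte-gate nuclei had such UMIs, and members were at 548 CPM in them and 556 CPM in the others, a ratio of 0.986 (0.804 to 1.199). The value depended on depth, with 2.72 after thinning to 500 UMIs, 1.49 without the deepest 8% of nuclei and 1.30 in the full range of the study's filter. Of 21 members there, 2 were at least 2-fold higher and 5 at most 0.5-fold, against 6.13% and 15.7% of all genes.

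**Figure D3:**
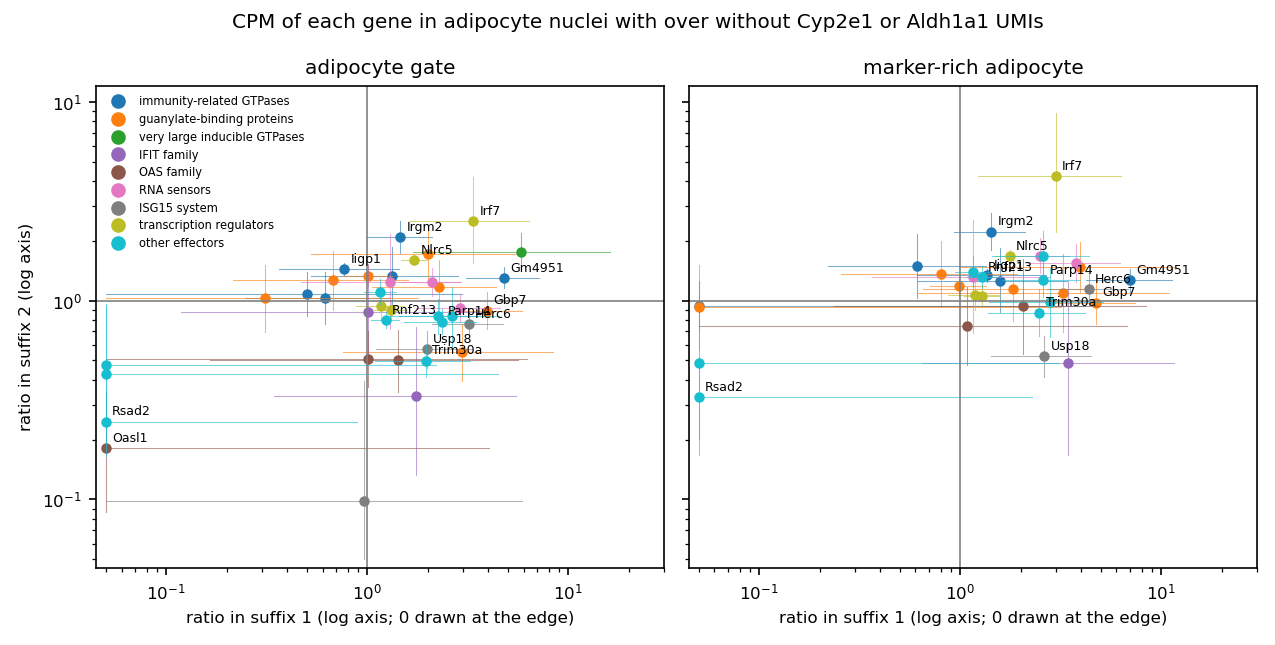
CPM ratio of nuclei with to without Cyp2e1 or Aldh1a1 UMIs for each member with at least 20 UMIs in both libraries, suffix 1 on the x axis and suffix 2 on the y axis (both log axes), coloured by role, for adipocyte-gate nuclei on the left and marker-rich nuclei on the right. Irf7 lies above 1 on both axes, while Usp18 lies above 1 in suffix 1 and below 1 in suffix 2 in both panels.

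A part of the member UMIs was gathered in few nuclei, to a degree that differed between members. After thinning to 500 UMIs the 1% of adipocyte-gate nuclei with the most member UMIs held 25.1% of them, and after thinning to 2000 UMIs 26.6%. Sparse counts alone raise such shares, and no share expected from them is given here. Without thinning, the 1% of nuclei with the most UMIs of a gene held 85.9% for Iigp1 but 16.7% for Nlrc5. Nuclei with at least 10 member UMIs that made up at least 50 of 10000 UMIs are called high below. This limit was set after the data were seen, and the members' own levels in the class follow from it. There were 19 high nuclei among 10355 adipocyte-gate nuclei with suffix 1 (0.183%, 0.111 to 0.286) and 112 among 6014 with suffix 2 (1.86%, 1.54 to 2.24), which held 9.79% and 31.5% of member UMIs. Of these, 11 and 74 were marker-rich. Just outside the limit, at 40 to 50 member UMIs per 10000, were 1 and 16 nuclei, and just inside, at 50 to 60, were 2 and 17. Median depth was 4613 and 4778 UMIs in high nuclei, and 6201 and 4193 in all adipocyte-gate nuclei. With limits of 5 UMIs and 25 per 10000 there were 28 and 260, and with 20 and 100 there were 11 and 48. Without the high nuclei the ratio of suffix 2 to suffix 1 was 2.43.

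The make-up of the high nuclei is given as a description, since the UMIs that make it up also chose the nuclei. In suffix 2 the IRGs made up 49.5% of member UMIs in high nuclei and 11.6% in the rest, at least 25% in 76 of the 112 nuclei and at least 50% in 54. Regulators made up 9.54% and 34.96%, other effectors 14.5% and 24.3%, GBPs 14.1% and 10.1%. Iigp1 alone gave 2457 UMIs, was found in 91 of the 112 nuclei and had a median of 12.5 and a maximum of 121 UMIs, and Gm4951 gave 622, Gbp6 505 and Nlrc5 433. In suffix 1 the IRG share was 24.2% against 6.33%, with Iigp1 (200 UMIs, in 16 of 19 nuclei) and Rnf213 (184) in front. IFIT genes were 4.19% of member UMIs in the 19 high nuclei of suffix 1, against 0.192% in the rest, and 1.12% in those of suffix 2. In suffix 1 a single nucleus held 546 of the 1695 member UMIs of the class, and without it the IFIT share was 2.35%, the ISG15 system's 4.53% in place of 7.08% and the IRGs' 27.9%. To keep a group's own UMIs from choosing the nuclei, the class was also built from the other members alone. In suffix 2 the IRGs were then at 5955 CPM in the class and 132 CPM in the rest (45.2 times, 42.5 to 48.0; 56 nuclei), the IFIT group at 139 and 1.97 CPM (70.3 times), the GBPs 30.7 times and the regulators 6.30 times (5.78 to 6.86) higher. Suffix 1 gave 235 times for the IRGs and 18.5 times for the regulators, from 14 and 18 nuclei. The share of high nuclei with Cyp2e1 or Aldh1a1 UMIs was 40.2% in suffix 2 against 33.95% of all adipocyte-gate nuclei, and 1 of 19 in suffix 1.

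**Figure D4:**
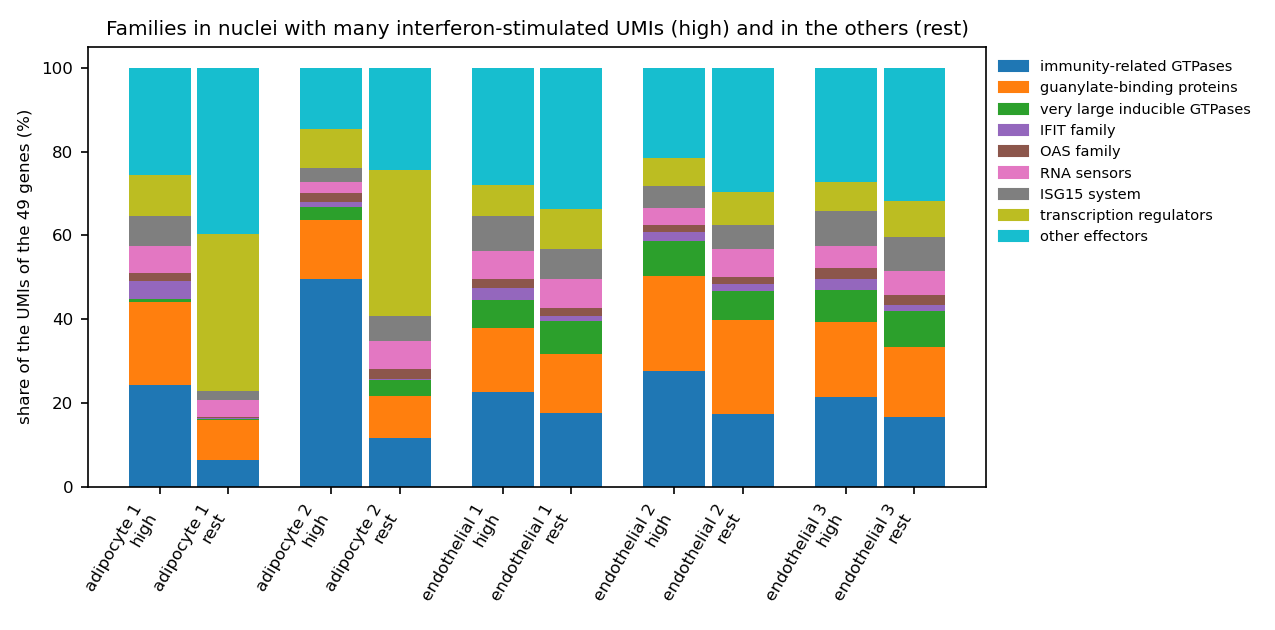
Share of member UMIs given by each role group in high nuclei and in the remaining nuclei of a gate, for adipocyte-gate nuclei of the genotype matrix and endothelial-gate nuclei of the aging matrix (bars from 0, in percent). In adipocyte-gate nuclei of suffix 2 the IRG share is 49.5% in high nuclei, which these same UMIs chose, and 11.6% in the rest.

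To see whether each member was raised beside the others, the class was rebuilt without it, so that its own UMIs did not choose the nuclei. In suffix 2 all 46 members with at least 20 UMIs were then at least 2-fold higher in the class, and 0 at most 0.5-fold, against 8.24% and 19.4% of all genes, with a median ratio of 22.02. Iigp1 was at 4065 CPM in the class and 56.6 CPM in the rest (71.8 times) and was found in 72.7% and 8.42% of nuclei. Gm4951 was 71.2 times, Gm4841 323 times and Gbp10 58.3 times higher. Some antiviral genes that were scarce in the rest had ratios near 100, with Rsad2 at 245 and 2.40 CPM (102 times), Oasl1 at 101 and 1.05 CPM (96.4 times) and Ifit1 at 45.6 and 0.427 CPM (107 times). Few nuclei carried these counts, and without the nucleus with most UMIs of the gene the ratios were 78.1, 62.1 and 71.7. Ifit1 was found in 7.14% of the nuclei of its class. Oas2 was at 7.65 times (4.86 to 11.6) and Usp18 at 5.70 times, below the median. Genes with a sizeable level in all nuclei were below it too, among them Nlrc5 (724 and 125 CPM, 5.81 times), Eif2ak2 (125 and 21.98 CPM, 5.67 times) and Irf9 (61.4 and 20.02 CPM, 3.07 times). In suffix 1, 37 of 38 members were at least 2-fold higher and 1, Oas2, with 0 of 23 UMIs in the class, at most 0.5-fold, against 12.2% and 43.3% of all genes. Iigp1 there was at 1653 and 2.02 CPM and Nlrc5 at 865 and 34.6 CPM. Some members share reads, as described above, so these ratios are not independent of each other.

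The markers of cell types were set beside this. The adipocyte gate leaves out nuclei that pass the list of another type, in the high class and in the rest alike. Low levels of these other markers thus follow in part from the gate, and cannot tell whether RNA of other cells is present. In suffix 2 the 8 adipocyte markers together were at 19098 CPM in high and 16875 CPM in the remaining adipocyte-gate nuclei, and 7 macrophage markers at 71.0 and 59.3 CPM, a ratio of 1.197 (0.860 to 1.62), with Cd163 at 0. In marker-rich nuclei the macrophage markers were at 21.6 and 28.9 CPM. The values that follow are again those of the whole adipocyte gate. Endothelial markers were at 11.8 and 29.2 CPM, with Cdh5, Ptprb, Tek and Emcn at 0. T lymphocyte markers were at 6.76 and 14.0 CPM, with Cd3e, Cd3g, Themis and Bcl11b at 0. The B lymphocyte list was at 52.4 and 33.7 CPM (1.55, 1.05 to 2.22) with UMIs of only 2 of 7 markers and Cd79a, Ms4a1 and Pax5 among those at 0. Ucp1 was at 778 and 807 CPM and Cyp2e1 at 225 and 227 CPM. In the 19 high nuclei of suffix 1, Ucp1 was at 601 CPM against 1020 CPM in the rest (0.589, 0.456 to 0.750). Cyp2e1 there was at 91.1 and 6.77 CPM (13.5 times, 6.41 to 24.96), with all 10 UMIs in 1 nucleus. In the same nuclei the macrophage list was at 36.4 and 7.53 CPM (4.84 times, 1.31 to 12.5), from few UMIs of 3 of 7 markers, with Mrc1, F13a1, Csf1r and Cd163 at 0. The part of such RNA in the suffix 1 result was not tested.

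Interferon-induced genes outside the list moved with the members in high nuclei, while most receptors and kinases did not. In marker-rich nuclei of suffix 2, 13 of 14 genes of MHC class I presentation and 18 of 19 other interferon-induced genes with at least 20 UMIs were at least 2-fold higher in high nuclei and 0 at most 0.5-fold, against 7.27% and 22.8% of all genes. Their median ratios were 4.50 and 4.77. The proteasome subunit gene Psmb9 went from 3.75 to 60.6 CPM (16.1 times, 10.2 to 24.9), the peptide transporter gene Tap1 from 10.8 to 128 CPM (11.8 times), and H2-D1, lowest of its list, from 52.6 to 95.2 CPM (1.81 times). Phf11d (18.7) and Bst2 (10.7), which encodes tetherin, had the highest ratios of the other induced genes and Helz2 (1.90) the lowest. Of 10 receptor and signalling genes 1 was at least 2-fold higher, Irf1 (16.1 to 219 CPM, 13.6 times), a regulator that interferon itself induces. The kinase gene Jak2 came next, at 24.1 and 36.8 CPM (1.53, 0.883 to 2.46). Over the 10 genes of this list, 2 had intervals above 1 and 1 had an interval below 1. In the same list 1 gene was at most 0.5-fold, Il10rb, which encodes a receptor subunit for type III interferon, with 0 UMIs in high nuclei. Ifnar1 (0.719, 0.309 to 1.43), Ifnar2 (0.891, 0.635 to 1.22) and Ifngr1 (0.742, 0.488 to 1.08), receptor chains for type I and type II interferon, had intervals that include 1. Of 9 genes of nucleic acid sensing, 4 were at least 2-fold higher, with Samhd1 (17.9 to 446 CPM, 24.8 times) and Adar (4.41 times) highest, and 2 at most 0.5-fold. In marker-rich nuclei of suffix 1 the same lists gave 10 of 14, 14 of 18, 1 of 11 and 4 of 8 at least 2-fold higher, against 11.8% of all genes, and 3, 4, 3 and 1 at most 0.5-fold, against 50.4%, from 11 high nuclei.

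**Figure D5:**
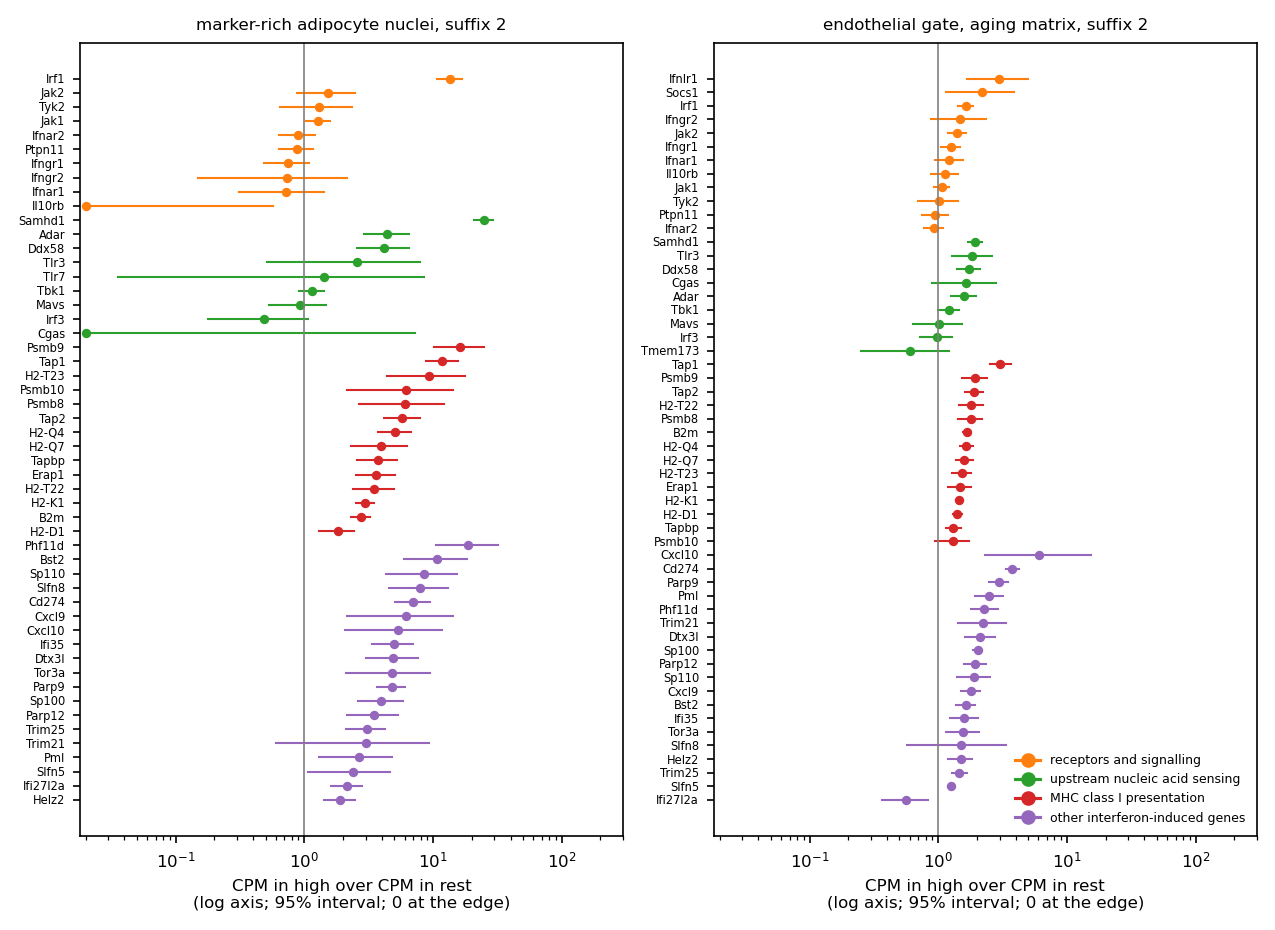
CPM ratio of high to remaining marker-rich adipocyte nuclei with suffix 2 (log axis) for interferon pathway genes that are not members, grouped as receptors and signalling, nucleic acid sensing, MHC class I presentation and other interferon-induced genes, with exact conditional binomial 95% intervals, and on the right the same for endothelial-gate nuclei of the aging matrix with suffix 2. On the left MHC class I genes and other induced genes lie to the right of 1, whereas receptors and kinases lie around 1 apart from Irf1 (13.6) and Il10rb, which is drawn at the left edge for its 0 UMIs in high nuclei.

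In the aging matrix 660, 425 and 123 nuclei of suffixes 1, 2 and 3 passed the adipocyte gate. Suffix 1 had a summed member level of 397 CPM (367 to 429), suffix 2 of 808 CPM (752 to 867) and suffix 3 of 593 CPM (515 to 678). Suffix 2 was 2.04 times (1.83 to 2.26) and suffix 3 1.49 times (1.27 to 1.75) suffix 1, and in marker-rich nuclei 2.505 and 1.87 times. Of 20 members 9 were at least 2-fold higher and 1 at most 0.5-fold with suffix 2, against 10.6% and 9.46% of all genes, and of 13 members 3 and 1 with suffix 3, against 8.33% and 11.2%. Iigp1 had 21, 89 and 14 UMIs, and its level with suffix 2 was 7.13 times (4.40 to 12.1) that with suffix 1. A single suffix 1 nucleus held 13 of the 21 UMIs, and without it the ratio was 18.7 (9.07 to 44.6), while in marker-rich nuclei, with 57 and 4 UMIs, it was 31.6 (11.7 to 120). The ratio of all members without the suffix 1 nucleus that held 125 of their 636 UMIs was 2.52. Gm4951, another IRG, went the other way, with 23, 6 and 2 UMIs and a ratio of 0.439 whose interval (0.146 to 1.11) includes 1. GBPs were at 58.6, 187 and 107 CPM, and the OAS group had 0, 10 and 1 UMIs, where 0 UMIs allows up to 1.87 CPM. High adipocyte nuclei numbered 2, 2 and 0.

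Endothelial-gate nuclei held most of the aging matrix and had 2979, 2593 and 2553 CPM of members with suffixes 1, 2 and 3, at median depths of 707, 1589 and 1667 UMIs. The ratios to suffix 1 were 0.871 (0.850 to 0.892) and 0.857 (0.837 to 0.878), so the order of libraries was not that of the adipocyte gate. Of 48 members 2 were at least 2-fold higher and 0 at most 0.5-fold with suffix 2, against 13.2% and 5.22% of all genes, and of 46 members 1 and 2 with suffix 3, against 9.41% and 7.22%. Role groups did not share 1 order of libraries. GBPs were at 432, 582 and 438 CPM and the ISG15 system at 225, 142 and 209 CPM. High nuclei were commoner than in adipocytes, 139 of 2789 (4.98%), 622 of 7203 (8.64%) and 564 of 7225 (7.81%), and held 28.4%, 32.3% and 29.6% of member UMIs. The lower share of suffix 1 stands beside its lower depth, which limits how many nuclei can reach 10 member UMIs. Iigp1 led in each of the 3 libraries with 413, 2185 and 1739 UMIs. The IRG share was 22.7%, 27.5% and 21.3% in high nuclei and 17.5%, 17.4% and 16.5% in the rest. With the class rebuilt without each member, the median ratio of members was 3.29, 3.28 and 3.39, and 39 of 41, 44 of 47 and 44 of 45 members were at least 2-fold higher, against 5.63%, 2.18% and 2.57% of all genes. At most 0.5-fold were 1, 0 and 0, against 17.4%, 9.88% and 10.2%. The MHC class I list had median ratios of 1.83, 1.63 and 1.42 and the other induced genes 2.31, 1.90 and 2.26 in these high nuclei. Endothelial markers were 1.10, 1.18 and 1.07 times the level of the rest, and adipocyte markers 0.845, 0.729 and 0.831 times, with intervals below 1. Ucp1 was at 0.142 (5 UMIs), 0.503 and 0.609 times. T lymphocyte markers, 3 of 7 of them with UMIs, were at 1.31 times (1.16 to 1.48) in suffix 2, and dendritic markers at 1.75 times (1.05 to 2.81) in suffix 3, from 3 of 6 markers. Mural markers were at 0.833 and 0.808 times and macrophage markers at 0.650 (0.419 to 0.969) and 0.753 times in suffixes 2 and 3. Their part in these results was not tested. The endothelial gate likewise limits markers of other types, except those of adipocytes.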

How the data were processed

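The deposited files hold raw counts of UMIs per gene and nucleus for iBAT snRNAseq of 2 matrices (WT and Ucp1-STX4KO; 2, 12 and 24 months). The authors sorted nuclei, made 10x Genomics 3′ libraries and, per the labels and the methods, aligned reads to mm10 with Cell Ranger 6.1.2, then used Seurat 4.1.0; the annotation release is not given in the sources used here. Raw counts were summed over gated nuclei in Python 3.11.15 (pandas 2.3.3, scipy 1.17.1, numpy 2.4.6). Only the lower limits of the study's filter were used (200 UMIs, 100 genes), since its upper limits leave no nucleus of 1 library. Sums carry exact Poisson, shares exact Clopper-Pearson intervals. Intervals of CPM ratios came from the exact conditional binomial. They are at 95% and cover counting error only. The ratio counts were tested on simulated Poisson counts of whole libraries. That simulation had no spread between nuclei, so it does not cover the uneven counts of nuclei seen here. A member was counted as higher or lower at a CPM ratio of at least 2 or at most 0.5 with at least 20 UMIs. The limit for a count of 0 is 3 counts. Each matrix was treated as 1 pooled sample with libraries parted by barcode suffix, so no p-value was computed. The members, gates, lists and comparisons were chosen with earlier results of these data known. Named genes were the 15 members with the most UMIs in the adipocyte gate, the 8 with the highest and 4 with the lowest ratio by Cyp2e1 or Aldh1a1 UMIs, the 3 highest and 3 lowest between suffixes, the 2 highest of each gate, and the 2 highest and the lowest of each pathway list; Irgm1, Oas2 and Ifit2 beside the suffix values, Usp18, Ifit1, Gbp6, Gbp10, Tap1 and the receptor genes were chosen after their values were seen. No doublet caller was run. Nuclei that passed several gates were set apart, and the deepest 8% of nuclei were left out as an alternative. Alternatives also changed the filter, gate limits, depth, nuclei and members. Marker-rich nuclei, high nuclei, classes built without a group, values without 1 nucleus and thinning to 2000 UMIs were added after the data were seen. Promoters came from RefSeq, and gene positions and transcripts from the GRCm38 annotation, joined through the Ensembl IDs of the files. Mx1 and Mx2 were not analysed here, and some pathway and marker genes are not reported here.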

Additional observations from a re-analysis of the deposited data

Results flagged for a closer look

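In total 5 members had opposite ratios of adipocyte-gate nuclei with to without Cyp2e1 or Aldh1a1 UMIs in the 2 libraries of the genotype matrix, with intervals on opposite sides of 1 in suffix 1 and suffix 2. The ratio was 1.99 and 0.569 for Usp18, 3.21 and 0.762 for Herc6, an E3 ligase for ISG15, 1.24 and 0.801 for Rnf213, 2.35 and 0.785 for Parp14, and 1.96 and 0.499 for Trim30a, a tripartite motif protein of innate immunity. The difference between the libraries was not tested, since each has no replicate. In marker-rich nuclei only Usp18 kept opposite directions. No count of opposite ratios over all genes is given here.

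Nuclei outside the gates used for comparison also held member UMIs. Mixed nuclei, which passed more than 1 of the other gates, were at 1666 CPM in the genotype matrix and 1598 CPM in the aging matrix. The 2158 barcodes of the aging matrix under the lower limits were at 1134 CPM (1017 to 1261, 342 member UMIs), above the 9.95 CPM that 3 counts would give.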

How the results depend on the processing

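The main values of 135 results and alternatives were compared with those reported; 57 stayed within the counting interval or 1.5 times the count, 75 moved beyond it and 3 reversed. For single members 179 of 254 stayed, 66 moved and 9 reversed. In the order of the report, the endothelial to adipocyte ratio of the genotype matrix (4.89) was 1.64 in the full range of the methods, 4.46 and 5.11 with 5 and 20 marker UMIs per 10000, 4.04 thinned to 500 UMIs, 4.39 without the deepest 8% of nuclei, 4.54 without Iigp1, 5.58 without immune-marker nuclei, 5.40 in marker-rich nuclei and 4.18 without high nuclei. That of the aging matrix (4.70) was 3.66 in the full range, 4.03 with 3 different markers and 4.03 with 20 marker UMIs, 4.28 thinned, 4.40 without Iigp1, 5.55 in marker-rich nuclei and 4.05 without high nuclei. The suffix 2 to 1 ratio in adipocytes (3.14) was 3.21 with 3 different markers, 3.07 and 3.20 with 5 and 20 marker UMIs, 3.68 thinned, 3.36 without the deepest 8%, 2.62 without the 1% of nuclei with the most member UMIs, 2.75 without Iigp1, 2.85 without immune-marker nuclei, 3.01 in marker-rich nuclei and 2.43 without high nuclei. It could not be computed in the full range, which holds no nucleus of suffix 1. The pooled Cyp2e1 or Aldh1a1 ratio (2.13) reversed to 0.921 in the full range, which holds suffix 2 only. It was 2.20 with 5 marker UMIs, 1.75 thinned, 2.33 without the deepest 8%, 1.90 without the top 1%, 1.95 without Iigp1, 2.25 without immune-marker nuclei, 2.33 with at least 2 UMIs of the 2 genes, 1.89 by Aldh1a1 alone, 2.44 in marker-rich nuclei, 1.93 without high nuclei, 1.46 in suffix 1 alone and 1.11 in suffix 2 alone. Within suffix 1 (1.46) it was 2.55 thinned, 1.66 without the deepest 8%, 2.09 with at least 2 UMIs, 1.67 by Cyp2e1 alone and 1.29 by Aldh1a1 alone. Within suffix 2 (1.11) it reversed to 0.921 in the full range and 0.929 thinned, and was 1.08 with 3 different markers, 1.15 and 1.08 with 5 and 20 marker UMIs, 1.07 without the top 1%, 1.07 without Iigp1, 1.245 without immune-marker nuclei, 1.199 with at least 2 UMIs, 1.32 in marker-rich nuclei and 1.16 without high nuclei. In the aging matrix (0.986) it was 1.30 in the full range, 2.72 thinned, 1.49 without the deepest 8%, 1.30 with at least 2 UMIs and 1.29 by Aldh1a1 alone. The 20 members at least 2-fold higher were 1 in the full range, 11 thinned, 13 by Aldh1a1 alone, 13 in suffix 1 and 3 in suffix 2. The 1 member at most 0.5-fold became 2 in the full range, with 20 marker UMIs, without the top 1%, with at least 2 UMIs, with at least 1 member UMI, in marker-rich nuclei and without high nuclei, 3 thinned and by Aldh1a1 alone, 4 without immune-marker nuclei, 5 in suffix 1 and 10 in suffix 2. Shares of all genes for these counts are given above only for the pooled nuclei, suffix 1 and suffix 2. The share of member UMIs in the top 1% of nuclei (25.1%) was 26.6% at 2000 UMIs. Single members reversed for Iigp1 (4.85) at 0.750 in the full range and 0.771 in suffix 1, for Gm4841 (3.28) at 0 thinned, 0.632 with at least 2 UMIs, 0.753 by Aldh1a1 alone and 0.503 in suffix 1, and for Rsad2 (0.650) at 1.01 without the top 1%, 1.01 with at least 2 UMIs and 1.05 in marker-rich nuclei. The suffix ratio of Gm4070 had no value when thinned to 500 UMIs, which left 0 UMIs in suffix 1. The causes were not tested.

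Marker-rich nuclei, the exclusion of high nuclei and thinning to 2000 UMIs were chosen after the data were seen. No paired analysis was possible because no condition has more than 1 library and no column carries a replicate number. Depth limits the rarest members, since 1 UMI in a nucleus thinned to 500 stands for 2000 CPM, and Tgtp1, Ifit3b and Oas3 had under 20 adipocyte UMIs.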
